A study of Arabidopsis thaliana with 16 samples.

Results

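The salt response of the upper root meristem of Arabidopsis thaliana (ecotype Columbia) was measured in zone 2, a stretch of root about 200 µm long. It begins about 150 µm behind the tip, where the root turns from a cone into a cylinder, and ends near the upper limit of the meristem. Seedlings were grown for 5 days on standard medium. They were then moved for 1 h to fresh standard medium or to the same medium with 140 mM NaCl, and the roots were cut into 4 zones. The means compared come from 4 of the 16 arrays of the series. The arrays are 2 of zone 2 on standard medium (replicates 3 and 4) and 2 of zone 2 on NaCl (replicates 1 and 2). These are called standard arrays 3 and 4 and NaCl arrays 1 and 2. Controls and treated plants shared the genotype, the age and the transfer, and differed in the NaCl. All 22746 probe sets of the Affymetrix ATH1 array that are not controls were tested, of 22810 in all.

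Each array measured RNA pooled from about 15 dissected pieces of root, so that no value belongs to 1 cell type. In such bulk samples, fewer cells of a type and less RNA per cell cannot be told apart. Nothing in the labels ties the replicates to separate cultures. The p-values measure only the spread between arrays of the same group, which may be technical. Unless stated otherwise, that spread was pooled over all zones and both media, not taken from the zone 2 arrays alone. The correlation across probe sets was 0.9859 between the standard arrays and 0.9819 between the NaCl arrays, against 0.968 to 0.9694 between a standard and a NaCl array. These correlations run over probe sets, which are not independent of each other. Depth has no counterpart here; the number of arrays limits the precision, and the median standard error of a zone 2 salt change was 0.23 on the log2 scale.

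Salt draws water out of root cells and brings sodium into them. Early responses known from roots include the hormone abscisic acid, hydrophilic protective proteins such as dehydrins and late embryogenesis abundant (LEA) proteins, the control of ion transport, and a pause in growth. In the upper meristem cells make their last divisions and begin to elongate, so that genes of the cell cycle and of wall loosening are both in use there. Before any effect of salt, the zone 2 levels of AUR1 and HTB4 lay between those of zones 1 and 3. That of HTB4 was close to zone 1. AUR1, an Aurora kinase of dividing cells, had a mean signal of 777 in zone 1, 273 in zone 2 and 100 in zone 3. The histone H2B gene HTB4 stood at 6964, 6355 and 2402 in the same order. EXPA7, an expansin of root hair cells, stood at 24.7 in zone 2 and 2098 in zone 3.

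After 1 h of NaCl, 951 probe sets were raised and 761 were lowered in zone 2. A probe set is called raised or lowered where its limma adjusted p (Benjamini-Hochberg, over all probe sets) was under 0.05. Changes are given as log2 of (signal + 16), which understates the change of genes with low signals. The calls came to 7.53% of all probe sets, 4.18% raised and 3.35% lowered. The counts for gene lists below stand beside these shares, at which a short list may hold 1 call or none. Of the calls, 423 increases and 290 decreases exceeded 1 log2 unit, and the extremes were 5.16 and -4.36. In all 951 raised and all 761 lowered probe sets the signals of the NaCl and the standard arrays did not overlap. Such separation is common with 2 arrays a group. Of all 22746 probe sets, 6178 had both NaCl arrays above both standard arrays and 5251 had both below. With 1 of the 4 arrays left out, between 777 and 1007 probe sets were called, the lowest number without standard array 3. A fit of the 4 zone 2 arrays alone called 668, of which 624 were shared with the 1712 above.

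The annotation limits which of these can be named. A single gene was listed for 491 of the raised and 436 of the lowered probe sets, and 81 and 70 of these carry a gene symbol. Many well-known stress genes have no probe set of their own in the tables used here and are not analysed.

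**Figure D1:**
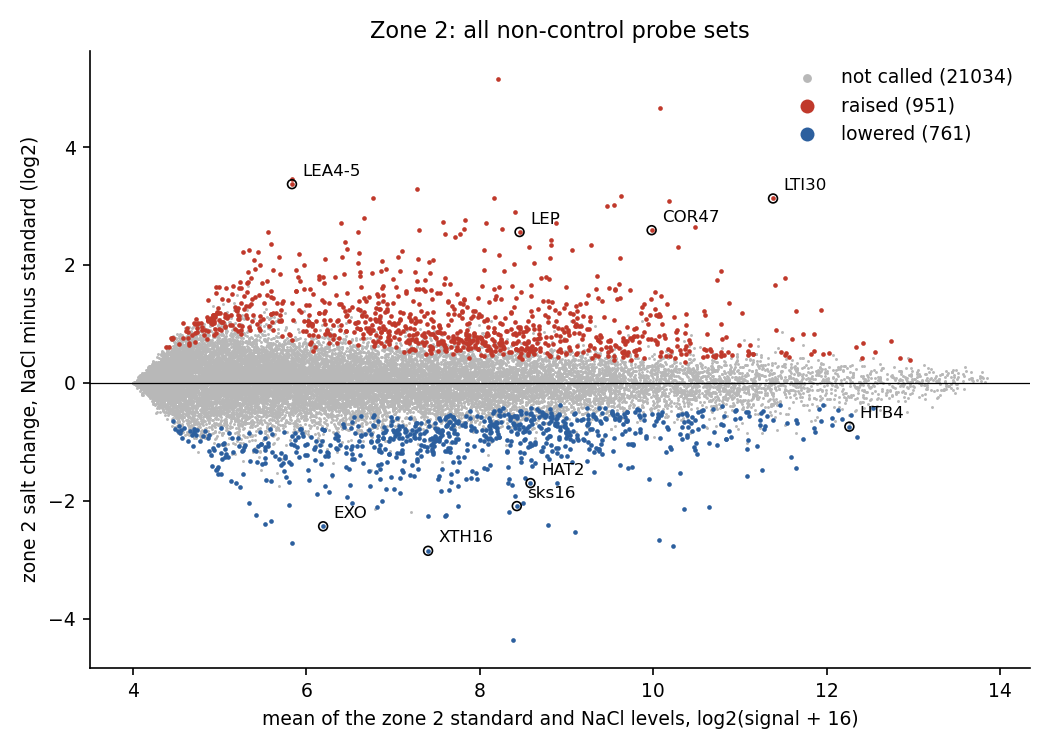
Zone 2 salt change of all 22746 probe sets (y axis, log2, NaCl minus standard) against the mean level of both groups (x axis, log2 of signal + 16). Red points are the 951 raised and blue points the 761 lowered probe sets, grey points were not called, and circled points are named genes; LTI30 combines a change of 3.13 with one of the highest levels among the raised.

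Dehydrins and LEA proteins, which shield membranes and proteins during water loss, held the largest increase among genes with a probe set of their own (3.37, LEA4-5). Of 13 measured members of this list, 5 were raised and none was lowered, with a median change of 0.38, against 0.03 over all probe sets. LTI30, a dehydrin, gave signals of 906 and 867 on standard medium and 8039 and 7708 on NaCl, a change of 3.13 ± 0.11 (SE, adjusted p = 3.7e-09 in limma). The groups stood far apart at already high levels, with an 8.88-fold ratio of the mean signals. LEA4-5, a group 4 LEA protein, was barely above zero on standard medium, at 1.57 and 1.51, and reached 209 and 130 on NaCl. Its change was 3.37 ± 0.23 (adjusted p = 1.22e-06), and that size depends on the pseudocount, at 6.03 with 1 and 1.81 with 64. COR47, another dehydrin, rose from 361 and 423 to 3042 and 1943 (2.59 ± 0.17, adjusted p = 1.22e-06).

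A further member, AT3G02480, rose from 6.51 and 1.83 to 76.1 and 78.4 (2.22 ± 0.30, adjusted p = 0.000507), and its size also moved with the pseudocount, to 4.08 with 1 and 1.05 with 64. The smallest of the 5 increases, AtLEA4-1, went from 20.18 and 27.27 to 76.1 and 58.3 (1.06 ± 0.28, adjusted p = 0.0323). That call was lost when any 1 of the 4 arrays was left out (adjusted p from 0.0683 to 0.197), with a pseudocount of 1 and in the fit of zone 2 alone. The other 8 members did not pass, and the dehydrin gene named LEA had a value of -0.54.

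The autophagy machinery delivers cell contents to the vacuole for recycling. Of 11 measured autophagy genes, 3 were raised and none was lowered, with a median of 0.28, and 3 were raised under each of the 13 alternative settings. All 3 encode ATG8, the ubiquitin-like protein that is attached to the autophagosome membrane. So do all others of the 11 measured genes except ATG3 and AT5G66930, so the list says little about the rest of the machinery. ATG8H went from 248 and 248 to 666 and 677 (1.38 ± 0.14, adjusted p = 3.88e-05). ATG8E was low on standard medium, at 11.95 and 8.34, and stood at 66.6 and 48.9 on NaCl (1.49 ± 0.20, adjusted p = 0.000524, with 2.401 at a pseudocount of 1 and 0.712 at 64). ATG8F gave 285 and 280 against 482 and 621 (0.91 ± 0.14, adjusted p = 0.0011). Of the other ATG8 genes, ATG8G had a value of -0.38 and ATG8C of 0.21, neither past the threshold. ATG8 genes are similar in sequence, and signal shared between copies was not tested.

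**Figure D2:**
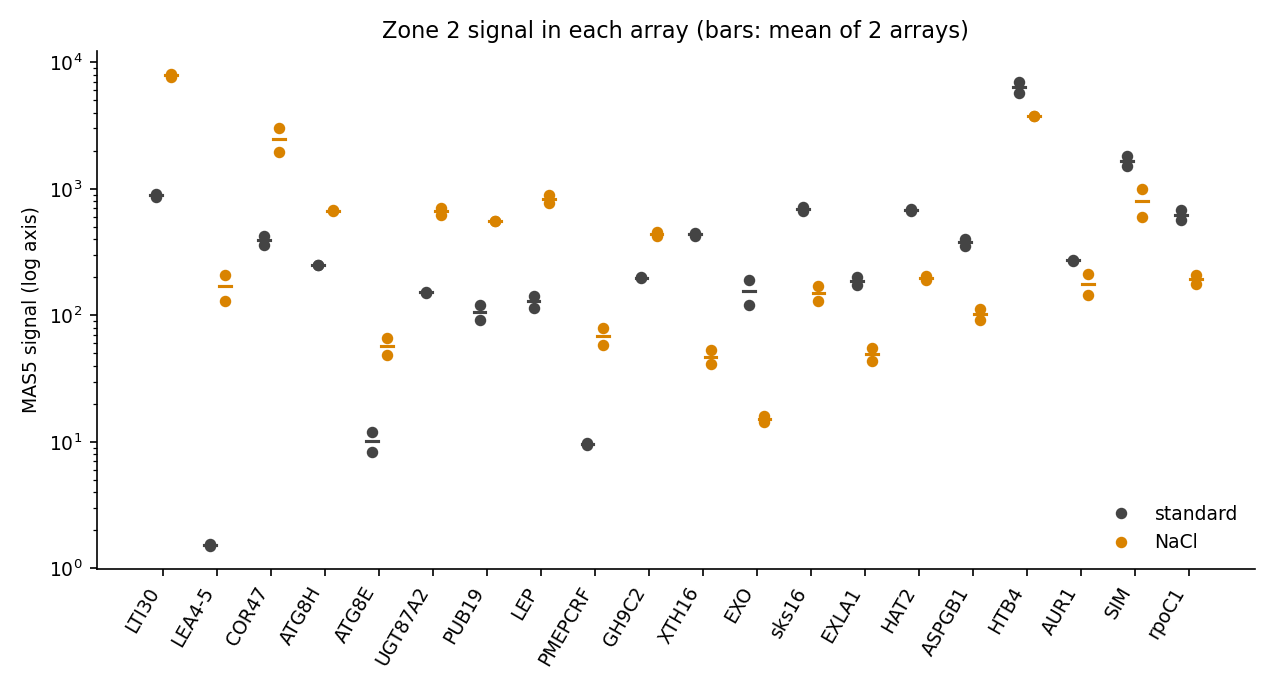
MAS5 signal (y axis, log scale) of 20 genes in each zone 2 array, grey for the standard arrays 3 and 4 and orange for the NaCl arrays 1 and 2, with a bar at the mean of each pair. In each gene shown the 2 NaCl points lie on one side of the 2 standard points; the widest gap is that of LEA4-5, from 1.57 and 1.51 to 209 and 130.

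UDP-glycosyltransferases attach sugars to hormones and other small molecules. Of 52 measured, 7 were raised and 1 was lowered (median 0.17). With 1 array left out the 7 became 3 without standard array 3, 5 without standard array 4, 5 without NaCl array 1 and 4 without NaCl array 2, and it was 3 in the fit of zone 2 alone. UGT87A2 gave 151 and 153 against 626 and 700 (2.01 ± 0.11, adjusted p = 3.18e-07). GT72B1, which glucosylates phenolics and foreign compounds, went from 92.1 and 89.1 to 239 and 164 (1.01 ± 0.16, adjusted p = 0.00136; 0.0769 with the zone 2 arrays alone). UGT71B1 (1.11 ± 0.21) and UGT73B4 (0.62 ± 0.12), both with an adjusted p of 0.00526, lost the call without 1 array each, the first without standard array 3 (0.0707) and the second without NaCl array 2 (0.0555). UGT76B1, which glucosylates isoleucic and salicylic acid, rose by 0.74 ± 0.17 (adjusted p = 0.019), a call lost without standard array 3, standard array 4 or NaCl array 1. The lowered one was UGT74B1, an enzyme of glucosinolate synthesis, at 616 and 414 against 178 and 261. Its change of -1.17 ± 0.22 (adjusted p = 0.0046) was no longer called without standard array 3 (0.0685), without NaCl array 1 (0.0576) or in zone 2 alone (0.079).

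Among 8 aldehyde dehydrogenases, which oxidise reactive aldehydes formed under stress, 3 were raised and the median was 0.22. They were ALDH7B4 (0.51 ± 0.13), ALDH2C4 (0.52 ± 0.14) and ALDH22A1 (0.45 ± 0.12), with limma adjusted p of 0.0272, 0.0362 and 0.0406. These small changes were within reach of single arrays: 2 members were called without NaCl array 1 and 0 without each of the other 3 arrays in turn. None was called in the fit of zone 2 alone or without the variance trend, and 1 was called after quantile normalization. HCT, an enzyme of the lignin pathway, was the 1 raised member of 5 phenylpropanoid genes, at 434 and 419 against 743 and 772 (0.80 ± 0.16, adjusted p = 0.00614; 0.0519 without standard array 4). None of 15 antioxidant enzymes was called in the limma fit, and their changes lay between -0.75 and 0.52.

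Among transport genes, 3 of 12 on a list of nitrate, peptide and glucosinolate carriers were raised. All 12 had values above 0 and the median was 0.42. The list holds members of the NRT1/PTR family and also NRT2.5 (0.22), a nitrate carrier outside that family. AT3G21670, annotated as NPF6.4, rose from 34.2 and 39.0 to 143 and 96.0 (1.34 ± 0.25, adjusted p = 0.00425), a call lost with a pseudocount of 1 and in zone 2 alone. GTR1, a glucosinolate importer, gave 76.0 and 93.4 against 200 and 160 (0.96 ± 0.20, adjusted p = 0.0091; 0.0912 without standard array 3 and 0.0826 without NaCl array 1). The third was AT1G68570, annotated as NPF3.1 (0.98 ± 0.27, adjusted p = 0.0425). The number raised fell to 1 without standard array 3 or NaCl array 1, to 2 without standard array 4 or NaCl array 2, and to 1 in zone 2 alone or with a pseudocount of 1.

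Of 6 cation and proton exchangers, CHX20 was raised, at 15.2 and 4.37 against 45.8 and 61.4 (1.46 ± 0.28, adjusted p = 0.00548). It lost the call without standard array 4 (0.0742), without NaCl array 2 (0.054) and in zone 2 alone (0.0736), and its value was 2.54 with a pseudocount of 1 and 0.67 with 64. None of 19 genes on the sugar transporter list was called. Their median was 0.25 and their values ran from -0.54 to 0.68. The list was drawn up by gene name and also holds SWEETIE, SWI3A and CHB3, which are not sugar carriers.

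In the ubiquitin system, which marks proteins for breakdown, 2 U-box ligases moved in opposite directions. PUB19, a U-box ligase that dampens abscisic acid responses, gave 120 and 91.8 on standard medium and 561 and 560 on NaCl (2.25 ± 0.29, adjusted p = 0.000299). PUB23, a U-box ligase that dampens immune and drought responses, gave 211 and 207 against 93.0 and 43.9 (-1.48 ± 0.31, adjusted p = 0.0102). The call of PUB23 was lost without standard array 3 (0.0681), standard array 4 (0.0597) or NaCl array 2 (0.108), and in zone 2 alone (0.0736). They were the only calls among 15 measured U-box and RING ligases, whose median was 0.17. Of 12 ubiquitin-conjugating enzymes, UBC30 was raised (0.56 ± 0.11, adjusted p = 0.0062; 0.0682 without standard array 4). UBC16 was lowered, from 96.2 and 110 to 39.3 and 38.9 (-1.11 ± 0.16, adjusted p = 0.000878), a call lost in the fit of zone 2 alone (0.063).

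Among transcription factors, LEP (LEAFY PETIOLE), an AP2/ERF protein, rose strongly. Its signals were 115 and 144 on standard medium and 895 and 780 on NaCl (2.56 ± 0.18, adjusted p = 1.65e-06), a 6.48-fold ratio of means. HAT2, an auxin-inducible homeodomain-leucine zipper factor, fell from 688 and 665 to 204 and 190 (-1.70 ± 0.22, adjusted p = 0.000301). Both calls held under each of the 13 alternatives. UPB1 (UPBEAT1), a basic helix-loop-helix factor that sets the balance of reactive oxygen species where the meristem ends, gave 79.2 and 166 against 398 and 259. The spread between its standard arrays was wide, and its call (1.36 ± 0.33, adjusted p = 0.0236) was lost without standard array 3 (0.233, with a change of 0.89), without NaCl array 1 (0.175), in zone 2 alone (0.116) and with a pseudocount of 1 (0.12).

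Among 22 measured bZIP factors, 2 were raised and 2 lowered, with a median of 0.06. The raised ones were bZIP19, a sensor of zinc shortage (0.68 ± 0.11, adjusted p = 0.00235), and bZIP44 (0.86 ± 0.16, adjusted p = 0.00522). BZIP53, a factor of seed maturation, was lowered (-0.63 ± 0.14, adjusted p = 0.0152), as was BZIP60, which acts in the unfolded protein response (-0.49 ± 0.13, adjusted p = 0.0353). The increases numbered 1 without standard array 4 or NaCl array 1 and 0 in zone 2 alone, and the decreases 1 without NaCl array 1 and 0 without each of the other 3 arrays. On the list of bHLH factors found by name, which lacks UPB1, 1 of 7 was raised, bHLH121 (1.06 ± 0.29, adjusted p = 0.0387). That call was lost after quantile normalization and in zone 2 alone. With 1 array left out the change of bHLH121 lay between 0.83 and 1.29. No member of 7 WRKY genes, 7 Aux/IAA genes or 5 auxin-conjugating GH3 genes was called. Of 9 genes on the calmodulin and EF-hand list none was called either. The list was drawn up by gene name and also holds AT4G35987 (-0.25), which is not such a protein. AT1G76640 had the lowest value, at 466 and 57.1 against 42.5 and 14.6 (-2.15 ± 0.77, adjusted p = 0.123). CML38 was at 225 in standard array 3 and between 3.41 and 5.24 in the other 3 arrays.

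**Figure D3:**
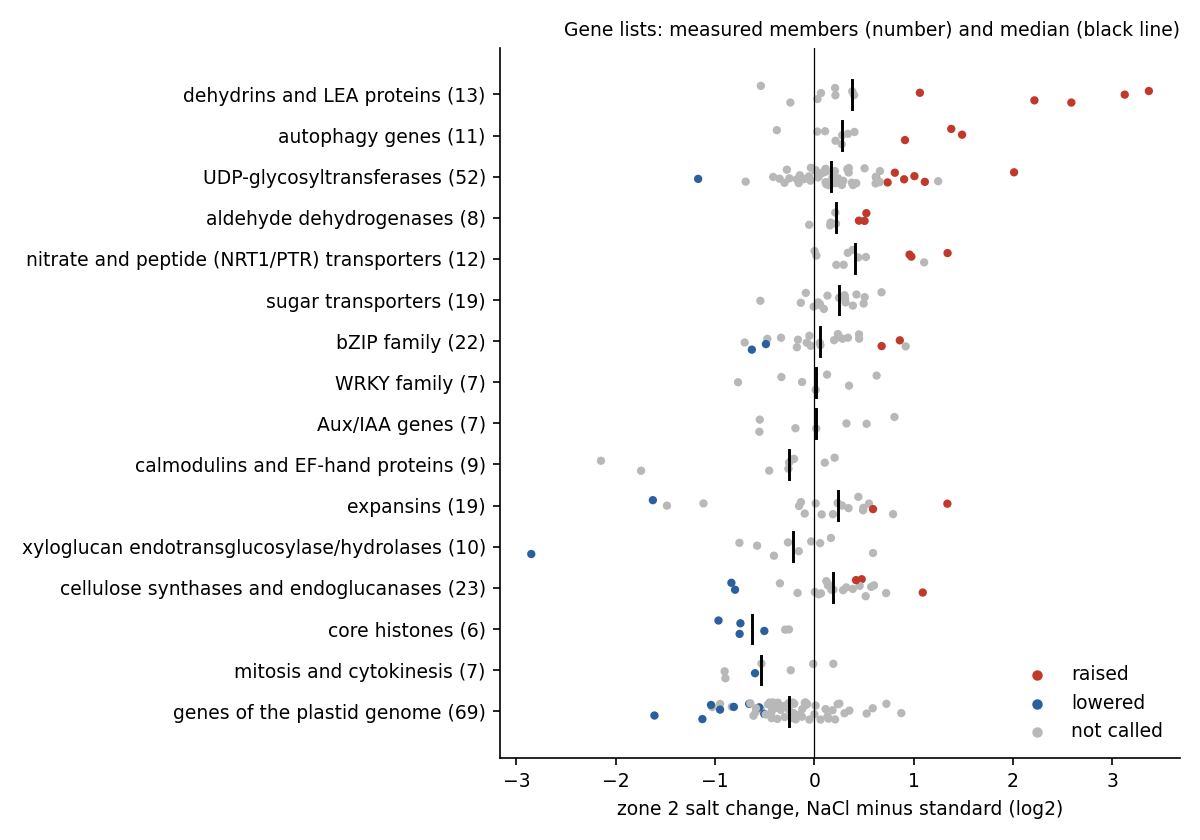
Zone 2 salt change (x axis, log2) of every measured member of 16 gene lists, with the number measured in brackets and a black line at the list's median. Red members were raised, blue lowered and grey not called; the 6 core histones all lie below 0, and the 69 plastid genes have a median of -0.25.

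Genes of the cell wall held the largest named decrease. XTH16, a xyloglucan endotransglucosylase/hydrolase that cuts and rejoins wall xyloglucan, went from 427 and 449 to 41.1 and 53.4 (-2.85 ± 0.22, adjusted p = 3.94e-06). Its mean signal was 9.28 times higher on standard medium, and it was the 1 lowered member of 10 measured XTH genes. EXO (EXORDIUM), a brassinosteroid-induced protein that promotes cell expansion, fell from 191 and 121 to 14.4 and 15.9 (-2.43 ± 0.29, adjusted p = 0.000175; -1.46 with a pseudocount of 64). The SKU5-similar protein gene sks16 fell from 671 and 714 to 131 and 172 (-2.09 ± 0.23, adjusted p = 0.000103). All 3 calls held under each of the 13 alternatives. Of 3 measured SKU5-similar genes a second one, sks15, was lowered (-0.89 ± 0.25, adjusted p = 0.0468), and not with any 1 array left out (0.0888 to 0.234).

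Expansins, which loosen the wall without cutting it, moved both ways. Of 19 measured, EXLA1 was lowered, from 173 and 200 to 43.8 and 55.5 (-1.63 ± 0.19, adjusted p = 0.000131). EXPA8 was raised, from 9.11 and 9.76 to 68.0 and 33.5 (1.34 ± 0.29, adjusted p = 0.0126), as was EXPA15 (0.59 ± 0.15, adjusted p = 0.0321). The 2 increases fell to 0 without standard array 3 or 4 and in zone 2 alone, and to 1 without NaCl array 1 or 2; that of EXPA8 was 2.22 with a pseudocount of 1 and 0.63 with 64. The median of the list was 0.24.

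Enzymes that build or trim cellulose and xyloglucan were also split, with 3 raised and 2 lowered of 23 and a median of 0.19. The endoglucanase GH9C2 rose from 200 and 196 to 426 and 457 (1.09 ± 0.17, adjusted p = 0.00151) and kept its call under each alternative. The endoglucanase GH9B7 (0.48 ± 0.10, adjusted p = 0.0106) and CSLD2 (0.42 ± 0.11, adjusted p = 0.04), of a family of cellulose synthase-like proteins, were raised by less. GH9C3 (-0.80 ± 0.22, adjusted p = 0.0387) and CSLC04, a synthase of the xyloglucan backbone (-0.83 ± 0.23, adjusted p = 0.0407), were lowered. Without standard array 3, standard array 4 or NaCl array 1 the increases came to 1, and the decreases to 0 without any 1 array; the zone 2 arrays alone gave 1 of each. PMEPCRF, a pectin methylesterase, rose from 9.76 and 9.46 to 79.5 and 58.7 (1.72 ± 0.19, adjusted p = 8.94e-05; 2.71 with a pseudocount of 1 and 0.85 with 64) and was the 1 call among 5 members of its list.

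Histones package new DNA and are made in dividing cells. All 6 measured core histone genes had values below 0 and 4 were lowered, each encoding H2B, with a list median of -0.62. HTB4 went from 6973 and 5737 to 3792 and 3749 (-0.74 ± 0.11, adjusted p = 0.00117) and kept its call under each alternative. HTB1 went from 1764 and 1721 to 1119 and 945 (-0.75 ± 0.14, adjusted p = 0.00548), HTB2 from 824 and 694 to 493 and 291 (-0.96 ± 0.27, adjusted p = 0.0432; -0.60 without NaCl array 2), and HTB11 from 2804 and 2293 to 1809 and 1760 (-0.50 ± 0.14, adjusted p = 0.0434). The count was 2 without standard array 3 or 4, 3 without NaCl array 1 and 1 without NaCl array 2, and 2 in zone 2 alone, after quantile normalization or without the variance trend. H2B genes are near copies of each other, and signal shared between them was not tested.

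Of 7 mitosis genes AUR1 was lowered, from 270 and 275 to 144 and 211 (-0.60 ± 0.16, adjusted p = 0.0372). Its call was lost without standard array 3 (0.146), standard array 4 (0.164) or NaCl array 1 (0.276, with a change of -0.34), in zone 2 alone (0.183) and without the variance trend (0.0584). AUR2, a second Aurora kinase, had a value of -0.90 ± 0.26 (adjusted p = 0.0506) and BUBR1, a spindle checkpoint protein, of -0.90 ± 0.30 (adjusted p = 0.0903), neither past the threshold. AUR2 passed with a pseudocount of 64 (0.0299), after median centring (0.0474), under the filters at the 40th (0.0249) and 60th percentile (0.0208) and without NaCl array 2 (0.0257). BUBR1 passed with a pseudocount of 64 (0.0402) and the filter at the 60th percentile (0.0488). The number of lowered mitosis genes ranged from 0 to 3 over the alternatives, with 0 without standard array 3, standard array 4 or NaCl array 1 and 2 without NaCl array 2. PRL, the MCM7 helicase subunit of DNA replication, gave 259 and 313 against 251 and 308, so that the groups overlapped. Of 4 measured genes on the list of cyclin-dependent kinase inhibitors and endocycle genes 2 were lowered, and the median was -0.22. AT5G40460 was lowered (-0.85), while AT1G08180 (0.46) and AT5G02420 (0.40) were not called. The other lowered gene was SIM (SIAMESE), an inhibitor that acts at the switch to endoreduplication. SIM went from 1506 and 1832 to 998 and 594 (-1.09 ± 0.27, adjusted p = 0.0253). That call was lost without standard array 3 (0.0728), standard array 4 (0.171) or NaCl array 2 (0.215, with a change of -0.73), in zone 2 alone (0.0909) and with a pseudocount of 1 (0.0504).

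The plastid genome encodes part of the photosynthetic and gene expression machinery of the plastids that root cells carry. Of its 69 measured genes, 8 were lowered and none was raised, and 53 had values below 0, with a median of -0.25. The gene with the largest change, rpoC1, encodes a subunit of the plastid's own RNA polymerase and fell from 682 and 566 to 210 and 177 (-1.61 ± 0.19, adjusted p = 0.000163). It kept its call under each of the 13 alternatives. The other lowered genes were rpoC2 of the same polymerase (-0.50), the ribosomal protein genes rps2 (-1.04), rpl22 (-0.81), rpl36 (-1.13, and -0.60 without NaCl array 2) and rpl33 (-0.56), atpF of the ATP synthase (-0.95) and psaI of photosystem I (-0.66). The 8 became 2 without standard array 3, 4 without standard array 4, 5 without NaCl array 1 and 3 without NaCl array 2, with 3 in zone 2 alone, 5 after quantile normalization and 4 without the variance trend. After quantile normalization the median of all probe sets moved from 0.03 to -0.0015. Plastid genes were grouped after their values had been seen. The same holds for the SKU5-similar, RALF-like, IQ-domain and serine carboxypeptidase-like genes, whose lists are among the 9 added.

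Further families held a few calls each. Some of their lists, as named above, were drawn up after values had been seen. RALF-like peptides are secreted signals that slow cell expansion. Of 10 measured, RALFL33 fell from 686 and 825 to 513 and 400 (-0.71 ± 0.13, adjusted p = 0.00536), RALFL31 was lowered as well (-0.78 ± 0.18, adjusted p = 0.0167), and RALFL32 was raised (0.60 ± 0.17, adjusted p = 0.0488). The median of the peptides was -0.23. The 2 decreases became 1 without standard array 3, NaCl array 1 or NaCl array 2 and 0 without standard array 4, and the call of RALFL32 was lost without standard array 3, standard array 4 or NaCl array 2 (0.34 without the last). Of 36 glycosyl hydrolases 3 were raised and 2 lowered, among them GH9C2, GH9B7 and GH9C3, which are counted above with the endoglucanases. The increases came to 1 without standard array 3 and 2 without each of the other arrays, and the decreases to 1 without standard array 4 or NaCl array 1 and 0 without NaCl array 2. The third increase was that of the beta-glucosidase gene BGLU25 (0.69 ± 0.16, adjusted p = 0.0154), with a call lost without standard array 3, where the change was 0.43, or NaCl array 2. The decrease of a second one, BGLU15, from 398 and 389 to 216 and 184 (-0.93 ± 0.18, adjusted p = 0.00582), was lost without NaCl array 2.

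Of 29 serine carboxypeptidase-like genes, scpl25 (-1.18 ± 0.25, adjusted p = 0.0117) and SCPL34 (-0.87 ± 0.21, adjusted p = 0.0219) were lowered. Of 22 trichome birefringence-like genes, a family with enzymes that acetylate wall polymers, TBL35 was lowered from 711 and 708 to 424 and 304 (-0.95 ± 0.21, adjusted p = 0.0151) and TBL41 raised (0.83 ± 0.21, adjusted p = 0.0253). Of 11 tubulin and actin genes, ACT11 was lowered (-0.86 ± 0.23, adjusted p = 0.0345) and ACT12, at 2.18 and 2.54 against 27.2 and 15.6, raised. Of 15 IQ-domain genes iqd32 was raised (0.90 ± 0.16, adjusted p = 0.00373, held under each alternative), IQD23 raised (0.54 ± 0.15) and IQD26 lowered (-0.98 ± 0.26). Apart from that of iqd32, each of these calls was lost without standard array 3 and without at least 1 further array.

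Calls among detoxifying enzymes are to be read beside the 4.18% raised and 3.35% lowered of all probe sets. Of 26 genes on the cytochrome P450 list CYP718 was raised (1.46 ± 0.40, adjusted p = 0.0431). The P450 list was drawn up by gene name and also holds CYP59 and CYP71, which are not cytochromes P450. CYP71B30P, whose suffix P marks a pseudogene, was lowered, from 16.6 and 13.4 to 1.26 and 2.17 (-0.81 ± 0.19, adjusted p = 0.0201). Of 13 glutathione transferases GSTU22 was raised, from 2915 and 3173 to 4728 and 4139 (0.54 ± 0.14, adjusted p = 0.033). None of these 3 calls held with any 1 array left out. ATGSTF13, a glutathione transferase not on that list, was lowered (-1.19 ± 0.27, adjusted p = 0.0152), a call lost without standard array 3, standard array 4 or NaCl array 1. Hsp70-2, the 1 measured heat shock gene, fell from 416 and 338 to 191 and 219 (-0.83 ± 0.15, adjusted p = 0.00426). That call was lost without standard array 3 and in the fit of zone 2 alone. RTE1, which regulates an ethylene receptor, rose from 115 and 90.7 to 203 and 238 (1.00 ± 0.18, adjusted p = 0.00399). The call of RTE1 was lost without standard array 4 and in the fit of zone 2 alone.

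Other named genes among the largest changes have varied roles. SIS, whose full name is Salt Induced Serine rich, rose from 7.84 and 27.5 to 170 and 222 (2.71 ± 0.37, adjusted p = 0.000507; 1.67 with a pseudocount of 64). CHI, annotated as a chitinase, rose from 37.4 and 21.3 to 180 and 116 (1.85 ± 0.23, adjusted p = 0.000228; 1.17 with a pseudocount of 64). ARL (ARGOS-like), which promotes cell expansion, rose by 1.59 ± 0.19, and PIA1, a protein phosphatase 2C, by 1.34 ± 0.14. LCR69, a small cysteine-rich protein of the plant defensin kind, went from 55.4 and 46.1 to 159 and 189 (1.51 ± 0.22, adjusted p = 0.00101). SGP1 went from 64.8 and 128 to 287 and 302 (1.53 ± 0.22, adjusted p = 0.000861), a call lost in the fit of zone 2 alone (0.0606). MT1C, a metal-binding metallothionein, rose from 96.6 and 69.0 to 287 and 186 (1.34 ± 0.18, adjusted p = 0.00051), a call lost in the fit of zone 2 alone (0.0654). Among the decreases, ASPGB1, an asparaginase that frees nitrogen from asparagine, fell from 404 and 353 to 91.2 and 112 (-1.75 ± 0.23, adjusted p = 0.000317). MSRB9, a methionine sulfoxide reductase, fell from the high level of 4930 and 5628 to 2031 and 1840 (-1.44 ± 0.21, adjusted p = 0.000816). CXE18, a carboxylesterase, fell from 240 and 251 to 79.3 and 63.7 (-1.59 ± 0.26, adjusted p = 0.00196).

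Several of the largest changes belong to loci that carry no gene symbol in the tables used, and no role is given for them. AT2G41810 rose from 454 and 317 to 3288 and 3385 (3.08 ± 0.30), AT1G20070 from 239 and 251 to 2451 and 1781 (3.01 ± 0.16) and AT5G65990 from 159 and 176 to 1170 and 1196 (2.71 ± 0.18). AT2G43870, AT2G25450, AT3G17130, AT4G18280, AT4G18425 and AT4G38410 rose by 2.47 to 3.29. AT4G18280 gave 135 and 30.2 on standard medium, its change was 1.68 without standard array 4, and it was not called in zone 2 alone (0.0796). On the other side AT5G10830 fell from 2795 and 2664 to 640 and 568 (-2.15 ± 0.15), and AT3G02640 from 976 and 1019 to 155 and 198 (-2.41 ± 0.28). The changes of AT1G10400, AT5G58784, AT2G47550, AT1G22550, AT3G46280, AT1G02810, AT3G62930, AT4G22470, AT4G35200 and AT1G10330 lay between -2.27 and -1.76. Adjusted p of these loci ran from 1.63e-07 to 0.0144, and AT4G35200 lost its call without any 1 of the arrays (0.0632 to 0.0826). AT5G58784 lost it with a pseudocount of 1 (0.0788).

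Markers of other cell types were checked beside these groups. Of 11 listed root hair genes 4 were measured and none was called: EXPA7 had a value of 0.55, SCN1 of 0.22, EXPA18 of 0.19 and XTH26 of 0.06. XTH26 lay between 1.28 and 2.77 in the 4 arrays, close to zero, whereas EXPA7 lay between 24.7 and 55.9. Both listed cortex genes had lower values on NaCl without passing, AT1G09750 with -0.79 (adjusted p = 0.1535) and AT1G62500 with -0.64 (0.244). The phloem gene OPS had 0.44, and AUR1 was the 1 measured of 9 markers of dividing cells. Root cap, xylem, endodermis and non-hair markers had no measured member. Their part in the results was not tested.

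Raised and lowered probe sets differed in where they stand along the unsalted root. Position was taken from zone 3 minus zone 1 on standard medium, whose group means share no array with the zone 2 comparison. Both comparisons took the spread of a probe set from the same fit, so calls in the 2 are not independent. Of all probe sets 49.3% differed between these zones, 22.8% being higher in zone 3 and 26.5% lower. Among the 951 raised in zone 2, 54.8% were higher in zone 3 and 15.6% lower, with a median difference of 0.60 against -0.03 over all probe sets. Among the 761 lowered, 33.9% were higher and 49.0% lower, with a median of -0.45. LTI30 illustrates the first group, at 321 in zone 1, 886 in zone 2 and 1758 in zone 3 on standard medium, and AUR1 the second. XTH16 goes the other way, being lowered by salt although it stood at 29.4 in zone 1 and 558 in zone 3. The part of position along the root in the salt change was not tested.

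**Figure D4:**
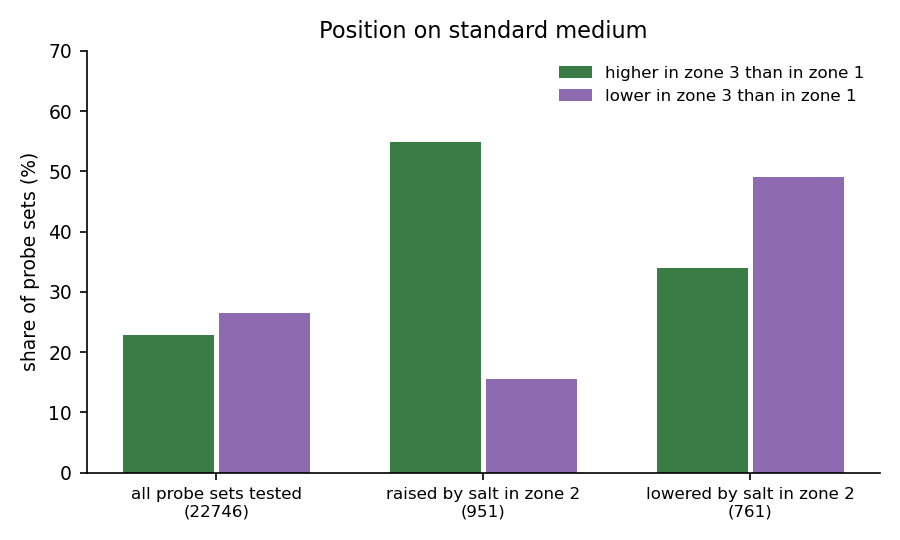
Share of probe sets (y axis, percent) that were higher (green) or lower (purple) in zone 3 than in zone 1 on standard medium, for all 22746 probe sets, the 951 raised and the 761 lowered by salt in zone 2. The green bar is 54.8% for the raised against 22.8% for all, and the purple bar 49.0% for the lowered against 26.5%.

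Much of the response was shared with the neighbouring zones, which were salted and analysed in the same way on separate arrays. All zones took the spread of a probe set from the same fit, so calls in different zones are not independent. Zone 1 had 3.4% of probe sets raised and 2.96% lowered, and zone 3 had 8.98% raised and 9.03% lowered. Of the 951 raised in zone 2, 348 were also raised in zone 1 (36.6%) and 548 in zone 3 (57.6%). Of the 761 lowered, 257 were lowered in zone 1 (33.8%) and 356 in zone 3 (46.8%). Calls in the opposite direction numbered 7 raised and 5 lowered probe sets in zone 1 and 20 and 22 in zone 3. Another 291 raised and 270 lowered probe sets were called in neither neighbour, which is not evidence of a difference, since a change can miss the threshold there. LTI30, LEA4-5, ATG8H, PUB19, HAT2 and AT5G65990 were called in zones 1, 2 and 3 alike, and LTI30 rose by 3.48 in zone 1 and 2.64 in zone 3.

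The difference between the zone 2 change and that of a neighbour was therefore tested directly. Against zone 1, 124 probe sets differed (0.545%), 98 with the higher change in zone 2 (0.431%) and 26 with the lower (0.114%). Against zone 3, 1062 differed (4.67%), 522 higher (2.29%) and 540 lower (2.37%). Leaving out 1 zone 2 array brought the first number to 63 to 118, with 63 without standard array 3 and 67 without NaCl array 1. It brought the second to 467 to 681, with 467 without standard array 3, 612 without standard array 4, 639 without NaCl array 1 and 681 without NaCl array 2. In all 23 probe sets (0.101%) had a higher change in zone 2 than in both neighbours, 17 of them raised in zone 2, and 9 (0.0396%) a lower one.

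COR47 and LEP were among the 23. COR47 changed by 0.11 in zone 1, 2.59 in zone 2, 1.38 in zone 3 and 0.14 in zone 4. Its zone 2 change was higher than that of zone 1 by 2.48 ± 0.25 (adjusted p = 0.00045) and than that of zone 3 by 1.21 ± 0.25 (adjusted p = 0.0142; 0.0696 without standard array 3). On standard medium its level was lowest in zone 2, at 391.7, against 3106 in zone 1, 5358 in zone 3 and 12595 in zone 4. LEP changed by 0.29, 2.56, 1.03 and -0.38 in zones 1 to 4, with differences of 2.27 (adjusted p = 0.000765) and 1.53 (adjusted p = 0.00516) from zones 1 and 3.

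AT5G64100, AT5G18470 and AT2G43890, loci without a symbol, were also among the 23. AT5G64100 gave 69.05 and 63.96 against 424 and 252 in zone 2 (2.06), with -0.96 in zone 1 and 0.42 in zone 3, and differences of 3.02 (adjusted p = 0.000449) and 1.64 (adjusted p = 0.00736). AT5G18470 gave 30.4 and 28.6 against 212 and 176, with differences of 2.48 (adjusted p = 0.000979) and 1.77 (adjusted p = 0.00473). AT2G43890 gave 86.5 and 132 against 939 and 864, with differences of 2.78 (adjusted p = 0.00635) and 1.83 (adjusted p = 0.0234). The second of these was lost without standard array 3 (0.105), NaCl array 1 (0.0768) or NaCl array 2 (0.059), and both were lost with a pseudocount of 1. GSTU27, a glutathione transferase, belonged to the 23 without a change of its own in zone 2 (-0.14, adjusted p = 0.65), while it fell in zones 1 and 3 by 1.20 and 1.13. Its difference from zone 1 was lost without standard array 3 (0.112), NaCl array 1 (0.0977) or NaCl array 2 (0.051), and that from zone 3 without standard array 3 (0.0532). TET3, a tetraspanin of the plasma membrane, was the reverse, with -0.38 in zone 2 and 0.38 and 0.55 in its neighbours; its difference from zone 3 held with each array left out (0.00943 to 0.0186), that from zone 1 with none (0.051 to 0.132).

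**Figure D5:**
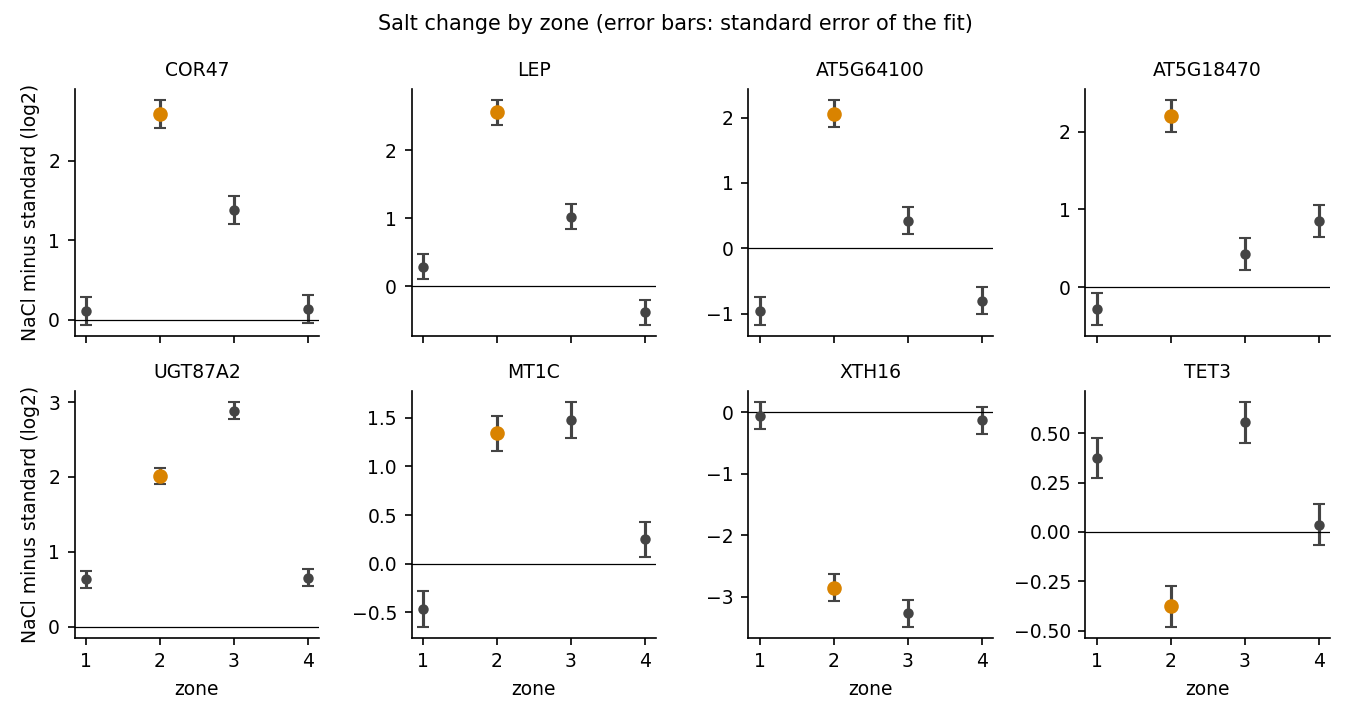
Salt change (y axis, log2, NaCl minus standard, with its standard error) in zones 1 to 4 (x axis) for 8 genes, zone 2 in orange; each panel has its own y scale. COR47 and LEP peak in zone 2 at 2.59 and 2.56, UGT87A2 rises to 2.89 in zone 3, and XTH16 falls in zones 2 and 3 but has a value of -0.05 in zone 1.

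Other genes set zone 2 apart from 1 neighbour. UGT87A2 stepped up along the root, its zone 2 change being 1.38 above that of zone 1 (adjusted p = 0.000976) and 0.87 below that of zone 3, written -0.87 (adjusted p = 0.008). XTH16 fell in zones 2 and 3 and had -0.05 in zone 1, with a difference from zone 1 of -2.80 (adjusted p = 0.000706). MT1C exceeded zone 1 by 1.81 (adjusted p = 0.00552), AT3G17130 by 2.31 (0.00719) and AT1G20070 by 1.46 (0.00744). UPB1 had -1.06 in zone 1 and a difference of 2.42 (adjusted p = 0.0359; 0.142 without standard array 3, 0.15 without NaCl array 1, 0.0529 and 0.0534 with pseudocounts of 1 and 64). AT4G17350 and AT2G34340 were lowered in zone 2 (-0.77 and -0.78) and raised in zone 1 (1.44 and 1.41), with differences of -2.21 (adjusted p = 0.000457) and -2.20 (0.000688). Neither decrease was called in zone 2 alone, without standard array 3 or without NaCl array 2, nor was that of AT2G34340 without standard array 4; both differences held under each setting run.

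Against zone 3, which elongates, the zone 2 change of LEA4-5 was lower (-2.03, adjusted p = 0.00393), a call lost with a pseudocount of 1 (0.421). AT4G38410 had 2.47 in zone 2 and -0.11 in zone 3, a difference of 2.58 (adjusted p = 0.000352). GH9C2 (1.33, adjusted p = 0.00784) and iqd32, of a family of calmodulin-binding proteins (1.38, adjusted p = 0.00504), were raised in zone 2 by 1.09 and 0.90 and had values of -0.24 and -0.48 in zone 3. The change in zone 2 was below that in zone 3 for sks16 (-2.18, adjusted p = 0.00318), EXLA1 (-1.48, 0.00715), ASPGB1 (-2.10, 0.00328) and AT5G10830 (-1.45, 0.00252), among others. In zone 3 their changes were 0.09, -0.14, 0.35 and -0.70 in the same order, of which only that of AT5G10830 passed the threshold (adjusted p = 0.00416). Their standard levels differ between the zones: sks16 stood at 692 in zone 2 and 39.9 in zone 3 and ASPGB1 at 378 and 42.6, whereas EXLA1 stood at 186 and 429.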

How the data were processed

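Transcripts were measured on Affymetrix ATH1 arrays, 2 for each of 4 root zones on each medium. The authors deposited 1 signal intensity per probe set on a linear scale, made with MAS5 per the submitters' processing notes, from RNA amplified in 2 cycles per the labels' protocols. Each array's mean, trimmed by 2% at each end, lay between 250.025 and 250.03. Detection calls were not used here.

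Log2(signal + 16) of the 22746 probe sets was fitted without filter in limma 3.58.1 (R 4.3.3) as 8 group means over all 16 arrays, followed by eBayes with a variance trend, which gave 8 residual degrees of freedom. Tests were two-sided, adjusted by Benjamini-Hochberg. The procedure was tested on simulated data.

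The probe table names 1 gene for 13513 probe sets, several for 503 and none for 8730; names come from RefSeq TAIR10.1. The brightest probe set stands for a gene. The members and lists were chosen with earlier results of these data known. Of 76 gene and marker lists 51 had a measured member, and 9 were added after values were seen. Genes were named by rule: the 15 largest changes each way with a mean of at least 100, the leading differences from each neighbour, and up to 6 members of a list. The 15 largest each way with a symbol were added after values were seen.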

Additional observations from a re-analysis of the deposited data

Results flagged for a closer look

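The results below were picked out because the salt change of zone 2 differed from that of a neighbouring zone by a test of the difference itself. The number of such probe sets was 124 against zone 1 and 1062 against zone 3. Groups of 2 arrays are too small for a check on single outlying arrays.

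Against both zones, the zone 2 change was higher in COR47 (by 2.48 and 1.21), LEP (2.27 and 1.53), AT5G64100 (3.02 and 1.64), AT5G18470 (2.48 and 1.77), AT2G43890 (2.78 and 1.83) and GSTU27 (1.06 and 1.00). TET3 was lower in both, with -0.75 and -0.93, and UGT87A2 lay between its neighbours, with 1.38 against zone 1 and -0.87 against zone 3.

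Against zone 1 the differences were -2.80 for XTH16, 1.81 for MT1C, 2.42 for UPB1, 2.31 for AT3G17130, 1.46 for AT1G20070, -2.21 for AT4G17350 and -2.20 for AT2G34340. Against zone 3 they were -2.03 for LEA4-5, 2.58 for AT4G38410, 1.33 for GH9C2, 1.38 for iqd32, -2.18 for sks16, -1.48 for EXLA1, -2.10 for ASPGB1 and -1.45 for AT5G10830. All values are differences of log2 changes. The share of each that comes from the level on standard medium was not tested.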

How the results depend on the processing

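The limits are those of 2 arrays a group. The count of 1712 called probe sets, 951 raised and 761 lowered, stayed within 1.5 times under pseudocounts of 1 and 64, quantile normalization, median centring, filters at the 40th and 60th percentile, eBayes without the trend, and a replicate block (1673, 1591 of them shared). It fell to 668 (377 raised, 291 lowered) with only the zone 2 arrays, which leaves 2 residual degrees of freedom. With 1 zone 2 array left out it ranged from 777 to 1007, the raised from 491 to 573 and the lowered from 286 to 434. The lone array is then assumed to vary like the other groups. Differences from zone 1 numbered 200 and 228 under the filters, where fewer probe sets are tested, and 63 to 118 with 1 array left out; those from zone 3 numbered 467 to 681.

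No paired analysis was possible because the zone 2 groups share no replicate numbers; the replicate block used the numbers shared elsewhere. Among the NaCl groups and zone 1 on standard medium, same-numbered arrays had deviations that correlated between -0.0137 and 0.0421. No strong effect common to same-numbered arrays was seen across probe sets. Whether such arrays came from the same culture cannot be told from these correlations. The shares by position were 55.4% and 52.3% of the raised, and 44.2% and 53.7% of the lowered, with pseudocounts of 1 and 64.

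Direction turned in 1 named gene, the uncalled GSTU27 (-0.29 without standard array 3 and 0.016 without standard array 4). Of the 118 named genes called in zone 2, 49 kept the call under every setting run. The size of the change moved by over 1.5 times in 9 of the 118 with a pseudocount of 1 and in 25 with 64. Promoter motifs were not run, as no promoter sequence was given. Signals near zero, such as LEA4-5 on standard medium, were used without detection calls, and their fold has no firm base.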
